A study of Mus musculus with 15 samples.

Results

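The 10 genes described here mark simple epithelial cells, the single-layered epithelia that line ducts and glands. They are the keratin genes Krt7, Krt8 and Krt18, the junction genes Cldn4 and Tjp1, the transcription factor genes Ovol2 and Elf3, the protease inhibitor genes Spint1 and Spint2, and the surface glycoprotein gene Cd24a. Members were all probes of the array that the platform annotation assigns to these symbols, 15 of 25697 probes. A probe was tested if its detection p, the chance that background alone gives a signal as strong, was under 0.01 on at least 3 arrays. This held for 11 of the 15, which cover all 10 genes. In all, 11109 probes were tested, which name 7576 of the 16593 genes on the array.

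Keratins of simple epithelia form filaments only as pairs of a type II chain, such as Krt8 or Krt7, with a type I chain, such as Krt18. Claudins seal the tight junction, whose cytoplasmic plaque is built on scaffold proteins such as Tjp1. In epithelial-mesenchymal transition, repressors of the Snail and Zeb families switch off such genes through E-box sequences, while factors such as Ovol2, Elf3 and the Grainyhead-like proteins hold the epithelial state.

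The arrays, Illumina mouse BeadChips, came from 4T1 and 4TO7, related lines of a mouse mammary carcinoma of which 4T1 metastasises on its own and 4TO7 seldom forms overt metastases. The 4T1 cells were stably transduced with the lentiviral vector pLKO carrying a scrambled hairpin (scramble) or 1 of 2 hairpins against Tm4sf1 (shTM4SF1-1 and shTM4SF1-5, here hairpin 1 and hairpin 5). The 4TO7 cells were stably transduced with the retroviral vector pBabepuro, either empty or encoding TM4SF1, a tetraspanin-like membrane protein. Each of the 5 groups held 3 arrays. Every group thus carries an integrated viral vector. The sources used here do not say whether a line was a clone or a pool, nor name the promoter and species of the TM4SF1 insert. The labels call the replicates biological without saying that cultures were grown apart, so p-values measure the spread between these arrays, which may be technical.

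Between 9436 and 10703 probes were detected on an array, and mean signal ran from 222 to 418.6 intensity units, with 24 to 59 beads behind each member's value. The targeted gene, Tm4sf1, had a mean log2 level of 8.07 in scramble cells at its only probe, ILMN_2462650. It fell by 1.13 to 6.94 with hairpin 1 (adjusted p = 0.000608, limma), and fell by 1.49 to 6.58 with hairpin 5 (adjusted p = 2.07e-05, limma). On the arrays labelled TM4SF1 in 4TO7 it differed from the empty vector by only 0.14 (adjusted p = 0.948, limma). No source used here says whether this probe reads the transduced insert, so it does not check that label, and those arrays are called labelled TM4SF1 below. Of 10 leukocyte and endothelial marker genes, 0 were detected on any array.

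The lines were separated by 5 of the member probes. Krt7, Krt18, Spint1, Krt8 and Cldn4 were lower in 4TO7 with the empty vector than in 4T1 with scramble, and all 6 arrays of 4TO7 lay below all 9 arrays of 4T1 for each of these 5. Across all tested probes, 29.9% separated the lines in this way, 15% with 4TO7 below and 14.9% with it above. In limma's fit, 5 of 11 member probes passed an adjusted p of 0.05 in the comparison of the control lines, where 45% of all tested probes passed. The number called is therefore at the background, and the background was nearly even in direction, with 22% lower and 23% higher. All 5 called members were lower and 0 were higher. The median log2 fold change of the 11 was -0.27, beside 0.02 over all tested probes. The count of lower members and this median both include Krt7 and Cldn4, which passed the detection filter through 4T1 arrays alone. For these genes the filter favours a fall in 4TO7, so the count and the median are descriptions. The lines also differ in vector and possibly in culture, which cannot be told apart from the line, and in bulk RNA fewer expressing cells cannot be told apart from less RNA per cell.

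**Figure D1:**
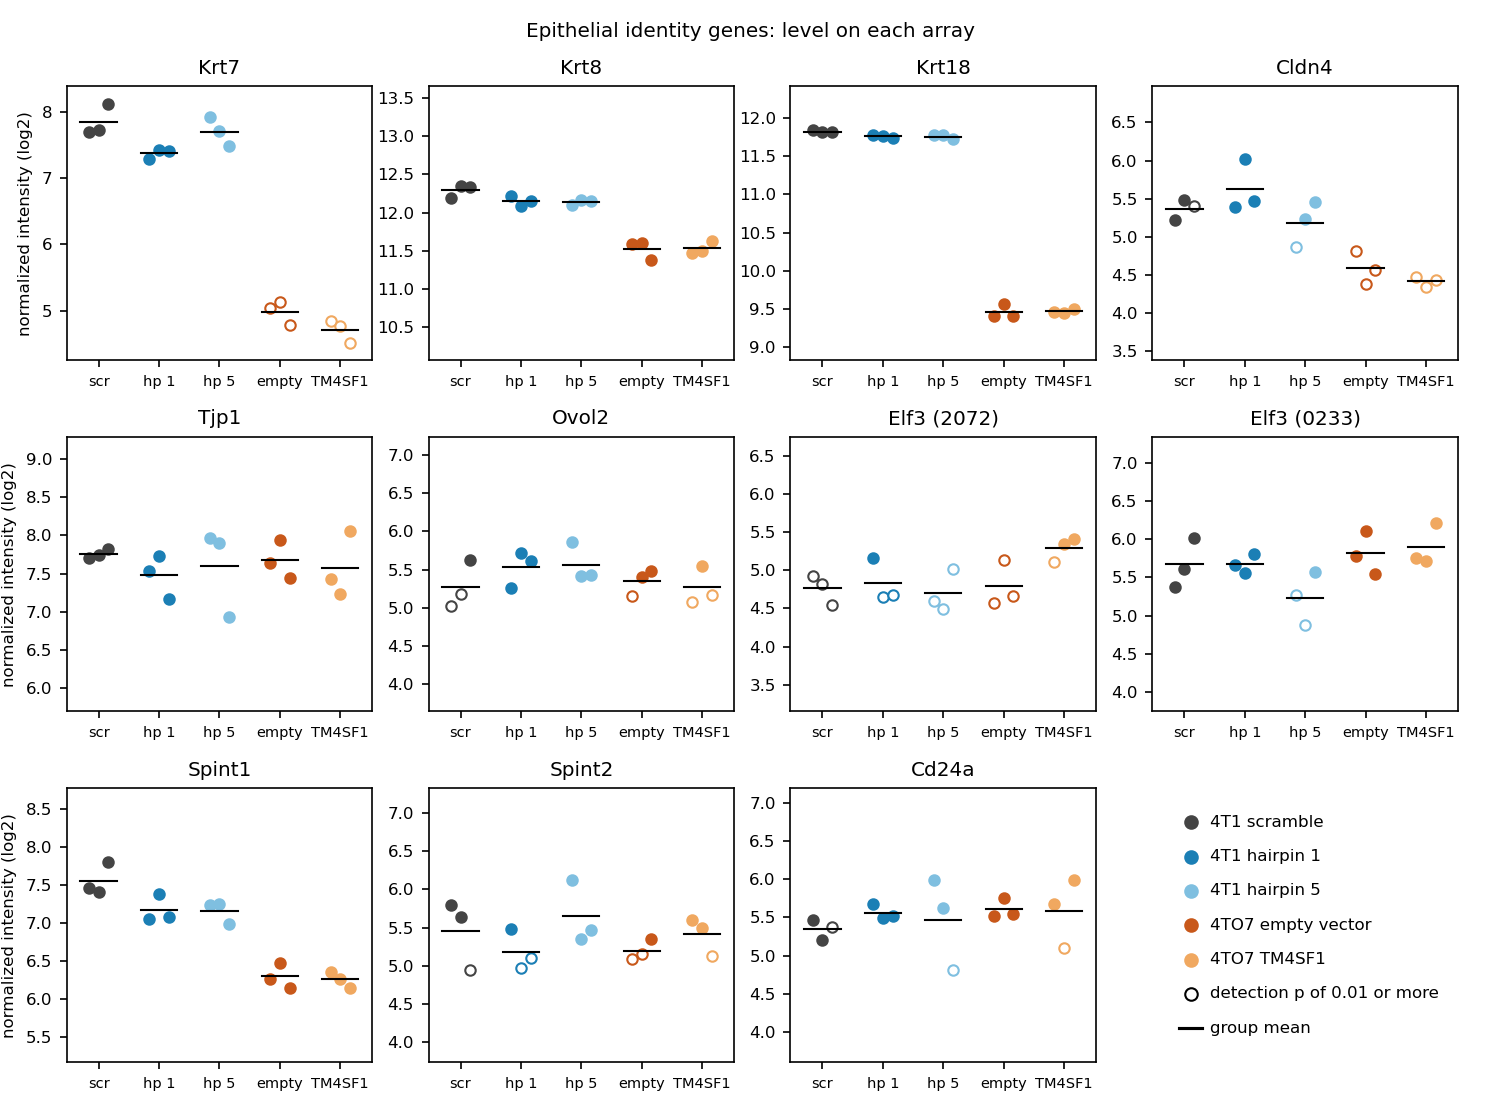
Normalized log2 intensity of the 11 tested member probes (one panel each, with Elf3 named by the last digits of its probe) on each of the 15 arrays, for scramble (scr), hairpin 1 and 5 (hp 1, hp 5), empty vector (empty) and TM4SF1. Hollow points were not detected and black bars are group means of 3 arrays. For Krt7, Krt8, Krt18, Cldn4 and Spint1 the 6 arrays of 4TO7 lie below the 9 arrays of 4T1, and for the other 6 probes the lines overlap.

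The promoters of these 5 genes are shown because these genes were lower together, as 300 bases each from RefSeq (build GRCm38.p6), 250 before to 50 after the annotated start, on the gene's strand. Capitals mark the E-box CAGGTG, read as CACCTG on the other strand, and the AP-2 type sequence GCCNNNGGC, which is its own reverse complement.
Krt7: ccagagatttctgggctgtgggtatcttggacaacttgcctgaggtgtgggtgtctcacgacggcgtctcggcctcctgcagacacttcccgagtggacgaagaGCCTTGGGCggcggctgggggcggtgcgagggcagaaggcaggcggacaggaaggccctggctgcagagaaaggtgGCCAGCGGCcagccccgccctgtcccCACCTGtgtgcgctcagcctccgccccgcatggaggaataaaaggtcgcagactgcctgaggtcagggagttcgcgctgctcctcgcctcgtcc
Krt8: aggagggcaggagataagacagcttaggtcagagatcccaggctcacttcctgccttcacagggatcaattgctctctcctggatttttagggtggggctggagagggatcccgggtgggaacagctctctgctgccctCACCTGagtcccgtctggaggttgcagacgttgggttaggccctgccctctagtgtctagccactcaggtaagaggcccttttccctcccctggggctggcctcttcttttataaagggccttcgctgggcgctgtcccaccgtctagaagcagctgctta
Krt18: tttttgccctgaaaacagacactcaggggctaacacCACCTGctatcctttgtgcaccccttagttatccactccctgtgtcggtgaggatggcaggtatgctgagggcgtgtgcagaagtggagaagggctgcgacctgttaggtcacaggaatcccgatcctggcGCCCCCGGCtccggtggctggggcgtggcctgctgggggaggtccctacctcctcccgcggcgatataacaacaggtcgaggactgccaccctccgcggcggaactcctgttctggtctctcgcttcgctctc
Cldn4: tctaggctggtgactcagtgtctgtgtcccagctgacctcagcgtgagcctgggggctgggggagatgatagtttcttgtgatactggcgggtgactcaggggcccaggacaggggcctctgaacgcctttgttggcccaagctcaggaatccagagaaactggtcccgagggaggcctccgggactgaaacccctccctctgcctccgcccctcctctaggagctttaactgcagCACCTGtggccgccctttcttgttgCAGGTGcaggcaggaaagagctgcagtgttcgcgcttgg
Spint1: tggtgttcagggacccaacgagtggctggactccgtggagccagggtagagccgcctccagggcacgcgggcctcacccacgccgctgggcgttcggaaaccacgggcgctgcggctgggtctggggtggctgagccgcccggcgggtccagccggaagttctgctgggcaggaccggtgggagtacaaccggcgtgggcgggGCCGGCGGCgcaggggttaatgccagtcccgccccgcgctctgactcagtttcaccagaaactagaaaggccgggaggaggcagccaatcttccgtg
In order, these windows are chr15:101412153-101412452 on the plus strand, chr15:102004293-102004592 on the minus strand, chr15:102027966-102028265 on the plus strand, chr5:134946885-134947184 on the minus strand and chr2:119237110-119237409 on the plus strand. The 3 keratin windows lie within the keratin region of chromosome 15, where Krt8 spans 101996711 to 102004342 and Krt18 spans 102028216 to 102032026.

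RefSeq gave a promoter window for 9 of the 10 members, and Cd24a was not matched. CAGGTG, searched on both strands, was present in 6 of the 9 windows, namely Krt7, Krt8, Krt18, Cldn4, Elf3 and Spint2, where 20.2% of 32851 windows of this length hold it. Krt7, Krt8, Krt18 and Elf3 hold 1 copy, Cldn4 holds 2 and Spint2 holds 3. GCCNNNGGC was present in 5 windows, with 2 copies in Krt7 and 1 each in Krt18, Tjp1, Spint1 and Spint2, against 16.6% of all windows. In none of the 9 was there a copy of the Grainyhead-like sequence AACCGGTT, present in 0.146% of windows, or of the Ovol-type sequence CCGTTA or its reverse complement TAACGG, present in 2.76%. No searched motif overlapped another in the windows printed. The matches describe these letters and do not show binding. Of the members called between the lines, Krt7, Krt8, Krt18 and Cldn4 hold the E-box and Spint1 lacks it. Of those not called, Elf3 and Spint2 hold it and Tjp1 and Ovol2 lack it, but Elf3, Spint2 and Ovol2 lay near the detection limit. The windows of Tjp1 (chr7:65371195-65371494) and Ovol2 (chr2:144331313-144331612) lie inside the spans of these genes, so starts farther upstream were not searched. Any link of these sequences to the difference between the lines was not tested.

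Krt7, a type II keratin of ductal epithelium (chr15:101412403-101427806), was detected on every array of 4T1 and on none of 4TO7. Its log2 level on the 3 scramble arrays was 7.70, 7.73 and 8.12, with hairpin 1 it was 7.29, 7.42 and 7.41, and with hairpin 5 it was 7.91, 7.71 and 7.48. In 4TO7 it was 5.04, 5.13 and 4.79 with the empty vector and 4.84, 4.77 and 4.52 on the arrays labelled TM4SF1. The gap between the lines was wider than the whole range within either of them. Since no array of 4TO7 detected Krt7, the fold is a bound: the mean of the group that detects it is set against the detection floor of each other array, which is the weakest signal of a detected probe there, or the Krt7 signal itself if that is stronger. Krt7 was at least 5.93-fold lower in empty-vector 4TO7 than in scramble 4T1 (measured log2 difference -2.86, SE 0.161, adjusted p = 2.91e-14, limma). With no background correction the log2 difference was -1.45. In the deposited, unnormalized values the same probe ran from 173 to 369.7 units in 4T1 and from 90.4 to 135 in 4TO7.

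Krt18, the type I chain of simple epithelia, was detected on all 15 arrays. Its log2 levels were 11.84, 11.82 and 11.82 with scramble, 11.78, 11.76 and 11.74 with hairpin 1, and 11.78, 11.77 and 11.72 with hairpin 5. They were 9.40, 9.56 and 9.40 with the empty vector and 9.46, 9.44 and 9.50 on the arrays labelled TM4SF1. Arrays of a line lay close together and the lines lay far apart. Krt18 was 5.17-fold lower in the empty-vector 4TO7 cells (adjusted p = 1.08e-20, limma, with a log2 fold change of -2.37 and an SE of 0.068). Unnormalized signal was 2203 to 5011 units in 4T1 and 602 to 987 in 4TO7, so for this gene the lines did not overlap before normalization either.

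Krt8, the type II partner of Krt18, was also detected on all 15 arrays. Its log2 levels were 12.19, 12.34 and 12.34 with scramble, 12.22, 12.08 and 12.15 with hairpin 1, and 12.10, 12.16 and 12.15 with hairpin 5. In 4TO7 they were 11.59, 11.60 and 11.37 with the empty vector and 11.47, 11.49 and 11.62 on the arrays labelled TM4SF1. The lines were again apart, by less than for Krt18. The fall between the control lines was 1.71-fold (log2 fold change -0.77, SE 0.0733, adjusted p = 1.49e-09, limma). Unnormalized signal, 2764 to 6499 units in 4T1 and 2411 to 3889 in 4TO7, did overlap.

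The unequal fall of the partners was examined as the log2 ratio of Krt18 to Krt8 signal on each array, whose level depends on the probes, so that only its change between groups is read. The ratio was not a planned test and was taken up because the falls differed on these same arrays, so its p-values are descriptions. With n = 3 arrays in each group, the ratio averaged -0.47 ± 0.0988 (SD) for scramble, -0.39 ± 0.0627 for hairpin 1 and -0.38 ± 0.0502 for hairpin 5. In 4TO7 it averaged -2.07 with the empty vector (SD 0.109, n = 3) and -2.06 on the arrays labelled TM4SF1 (SD 0.0556, n = 3). The ratio in control 4TO7 minus that in control 4T1 was -1.60 with no overlap of arrays, and a two-sided exact permutation test gave p = 0.1, the smallest that 3 arrays against 3 allow. For the hairpins against scramble the exact permutation p was 0.3 for each, and for TM4SF1 against the empty vector it was 1.

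**Figure D2:**
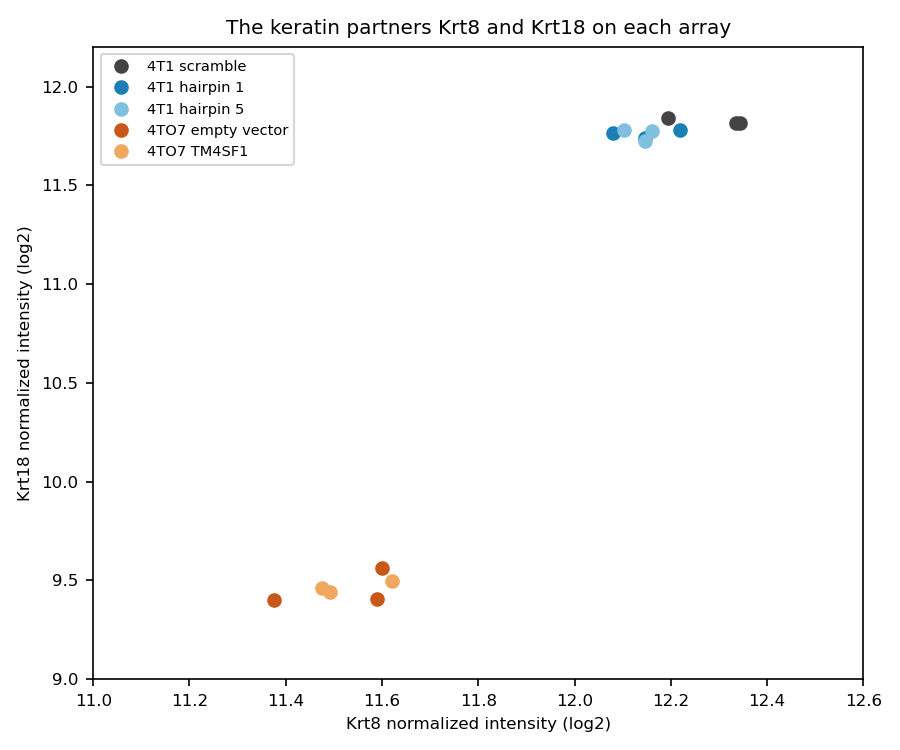
Normalized log2 intensity of Krt18 (vertical axis) against that of Krt8 (horizontal axis), 1 point per array, coloured by group. The 9 arrays of 4T1 form a cluster with Krt18 near 11.8 and the 6 arrays of 4TO7 a cluster with Krt18 near 9.5, and the hairpin and TM4SF1 arrays stay with their own line.

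Spint1 encodes a membrane-anchored Kunitz-type inhibitor of serine proteases such as matriptase (chr2:119237360-119249535), and was detected on all 15 arrays. Its log2 levels were 7.46, 7.41 and 7.80 with scramble, 7.05, 7.38 and 7.09 with hairpin 1, and 7.23, 7.25 and 6.99 with hairpin 5. In 4TO7 they were 6.27, 6.48 and 6.15 with the empty vector and 6.36, 6.27 and 6.15 on the arrays labelled TM4SF1. The scramble arrays were the highest of the 15 and the 4TO7 arrays the lowest. Spint1 was 2.39-fold lower in control 4TO7 than in control 4T1 (log2 fold change -1.26, SE 0.148, adjusted p = 7.34e-08, limma). With no background correction the log2 difference was -0.74. Unnormalized Spint1 signal overlapped between the lines, at 171 to 332 units in 4T1 and 124 to 193 in 4TO7. Spint2, its paralog and also a Kunitz-type inhibitor, did not pass the test between the lines (log2 fold change -0.27, 95% interval -0.75 to 0.21, adjusted p = 0.373, limma). Whether the change of the paralogs differs was not tested, and the Spint2 probe lay near background, detected on 9 of 15 arrays.

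Cldn4 encodes a claudin of the tight junction (chr5:134945123-134946934). Its log2 levels were 5.22, 5.48 and 5.40 with scramble, 5.39, 6.02 and 5.47 with hairpin 1 and 4.86, 5.23 and 5.45 with hairpin 5. In 4TO7 they were 4.82, 4.38 and 4.56 with the empty vector and 4.47, 4.34 and 4.43 on the arrays labelled TM4SF1. The probe was detected on 7 of the 9 arrays of 4T1, close to background, and on none of 4TO7. It was at least 1.06-fold lower in control 4TO7 (measured log2 difference -0.78, SE 0.211, adjusted p = 0.00348, limma), and the log2 difference was -0.26 with no background correction. The bound is small because scramble 4T1 itself was near the detection limit, and unnormalized signal overlapped, at 95.9 to 154 units in 4T1 and 88.1 to 128 in 4TO7.

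Tjp1, the tight junction scaffold also called ZO-1 (chr7:65296165-65527850), was detected on all 15 arrays and did not follow Cldn4. Its log2 levels were 7.71, 7.74 and 7.82 with scramble, 7.53, 7.73 and 7.17 with hairpin 1 and 7.97, 7.90 and 6.93 with hairpin 5. They were 7.64, 7.94 and 7.44 with the empty vector and 7.43, 7.23 and 8.06 on the arrays labelled TM4SF1. All 5 groups overlapped, and arrays within the hairpin 5 group spread more (SD 0.583, n = 3) than the group means did. The log2 fold change between the control lines was -0.08, with a 95% interval of -0.52 to 0.35 (adjusted p = 0.783, limma).

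The transcription factor genes were near the detection limit. Ovol2, a zinc finger repressor (chr2:144305175-144332080), has 3 probes, of which ILMN_2498591 and ILMN_2498592 were detected on 0 arrays. Its remaining probe, ILMN_3131909, was detected on 10 of 15, with log2 levels from 5.02 to 5.86 in 4T1 and from 5.08 to 5.55 in 4TO7. The latter probe is annotated to another RefSeq transcript than the 2 undetected ones. Group means ran from 5.27, both on the arrays labelled TM4SF1 and with scramble, to 5.56 with hairpin 5, and no neighbouring groups in that order were apart. Between the control lines the log2 fold change was 0.08 (95% interval -0.35 to 0.50, adjusted p = 0.795, limma).

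Elf3, an ETS factor of epithelial cells (chr1:135253574-135258472), also has 3 probes. Probe ILMN_2850233 was detected on 13 arrays, ILMN_2692072 on 3 and ILMN_2621659 on 0. For the first, log2 levels were 5.38, 5.61 and 6.02 with scramble, 5.67, 5.55 and 5.81 with hairpin 1, and 5.27, 4.87 and 5.57 with hairpin 5. The empty-vector arrays gave 5.79, 6.11 and 5.55, and those labelled TM4SF1 gave 5.75, 5.72 and 6.21. The lowest group was hairpin 5, where 1 of 3 arrays detected the probe, and its arrays lay below all 3 labelled TM4SF1 and overlapped those of the remaining groups. The log2 fold change between the control lines was 0.14 at this probe (adjusted p = 0.615, limma), and ILMN_2692072 was detected in neither of those groups.

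Cd24a, a glycosylphosphatidylinositol-anchored surface glycoprotein used to sort mammary epithelial cells (chr10:43579169-43584265), was detected on 12 of 15 arrays. Its log2 levels were 5.47, 5.20 and 5.37 with scramble, 5.68, 5.49 and 5.51 with hairpin 1, and 5.99, 5.62 and 4.81 with hairpin 5. With the empty vector they were 5.52, 5.76 and 5.55, and on the arrays labelled TM4SF1 they were 5.68, 5.10 and 5.99. Of the 11 member probes, Cd24a alone had all 3 empty-vector arrays above all 3 scramble arrays, but the log2 fold change of 0.26 did not pass the test (95% interval -0.23 to 0.75, adjusted p = 0.393, limma). In this comparison the arrays of 54.6% of all tested probes did not overlap, and those of 28% had the empty vector above. Spint2 (chr7:29256330-29282059) was read by ILMN_2645845, with log2 levels of 5.80, 5.64 and 4.94 with scramble, 5.48, 4.97 and 5.10 with hairpin 1 and 6.12, 5.35 and 5.46 with hairpin 5. In 4TO7 it gave 5.09, 5.15 and 5.35 with the empty vector and 5.60, 5.50 and 5.13 on the arrays labelled TM4SF1, and its other probe, ILMN_2663338, was detected on 0 arrays. The hairpin 5 arrays of the first probe all lay above the empty-vector arrays, by a narrow margin, and every other pair of groups overlapped.

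The study's main question was what lowering Tm4sf1 in 4T1 and introducing it into 4TO7 does to the transcriptome. With hairpin 1, 0 of 11 member probes passed the test, where 4.7% of all tested probes passed, and 2 had an unadjusted p under 0.05. With hairpin 5, 0 of 11 passed, where 2.63% of all probes passed, and again 2 had an unadjusted p under 0.05. The median log2 fold change of the members was -0.06 with hairpin 1 and -0.15 with hairpin 5, beside -0.003 and 0.006 over all tested probes. Both comparisons use the same scramble arrays, so values in common are not independent.

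Krt7 came nearest to a call with hairpin 1. All 3 hairpin 1 arrays lay below all 3 scramble arrays, with a log2 fold change of -0.47 (SE 0.161, 95% interval -0.80 to -0.14, adjusted p = 0.0972, limma). It was called by limma with no background correction (-0.33, adjusted p = 0.0236), with an offset of 50 (-0.41, adjusted p = 0.0402) and with the compared groups fitted alone (-0.47, adjusted p = 0.0291). With hairpin 5 the Krt7 arrays overlapped those of scramble, and the log2 fold change was -0.15 (95% interval -0.48 to 0.18, adjusted p = 0.748, limma). The direct comparison of the hairpins gave -0.33 for Krt7 (95% interval -0.66 to 0.002, adjusted p = 0.404, limma), so a difference between them was not called.

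Spint1 had the same sign with both hairpins, and its arrays did not overlap those of scramble with either. Its log2 fold change was -0.38 with hairpin 1 (95% interval -0.69 to -0.08, adjusted p = 0.161, limma) and -0.40 with hairpin 5 (95% interval -0.70 to -0.09, adjusted p = 0.181). Neither passed after adjustment over all probes.

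The keratin partners had narrow intervals. Krt18 differed from scramble by -0.06 with hairpin 1 (95% interval -0.20 to 0.08) and by -0.07 with hairpin 5 (-0.21 to 0.07). Krt8 differed by -0.14 (-0.29 to 0.01) and by -0.15 (-0.31 to -0.004, adjusted p = 0.326, limma). The lower ends of both Krt18 intervals, -0.20 and -0.21, are small beside its difference of -2.37 between the lines. This does not hold to the same degree for Krt8, with lower ends of -0.29 and -0.31 beside a difference of -0.77 between the lines. With hairpin 1, 4 of 11 member probes had arrays that did not overlap those of scramble, Krt7, Krt18 and Spint1 below and Cd24a above, where 23.5% of all probes did not overlap, 11.5% below and 12% above. With hairpin 5 they were Krt8, Krt18 and Spint1, all below, where 19.5% of all probes did not overlap and 9.47% lay below.

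The other members were measured less precisely. With hairpin 1, Cldn4 differed by 0.26 (95% interval -0.17 to 0.70), Tjp1 by -0.28 (-0.71 to 0.16), Ovol2 by 0.26 (-0.17 to 0.68), Spint2 by -0.28 (-0.76 to 0.20) and Cd24a by 0.21 (-0.28 to 0.70). With hairpin 5 the log2 fold changes were -0.18 for Cldn4, -0.16 for Tjp1, 0.29 for Ovol2, 0.18 for Spint2 and 0.12 for Cd24a, with intervals that all span 0. At its detected probe, Elf3 differed by 0.004 with hairpin 1 and by -0.43 with hairpin 5 (95% interval -0.87 to 0.0003, adjusted p = 0.346, limma). Of the intervals printed here for these 6 genes, that of Elf3 with hairpin 5 reached farthest from 0.

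Between the hairpins, 0 of 11 member probes passed the test, where 1.45% of all tested probes passed, and 2 had an unadjusted p under 0.05. These were Cldn4, higher with hairpin 1 by 0.45 (95% interval 0.01 to 0.88, adjusted p = 0.383, limma), and Elf3 at ILMN_2850233, higher by 0.44 (95% interval 0.004 to 0.87, adjusted p = 0.392). Only Krt7 had arrays that did not overlap between the hairpins, where 16.3% of all probes did not overlap.

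**Figure D3:**
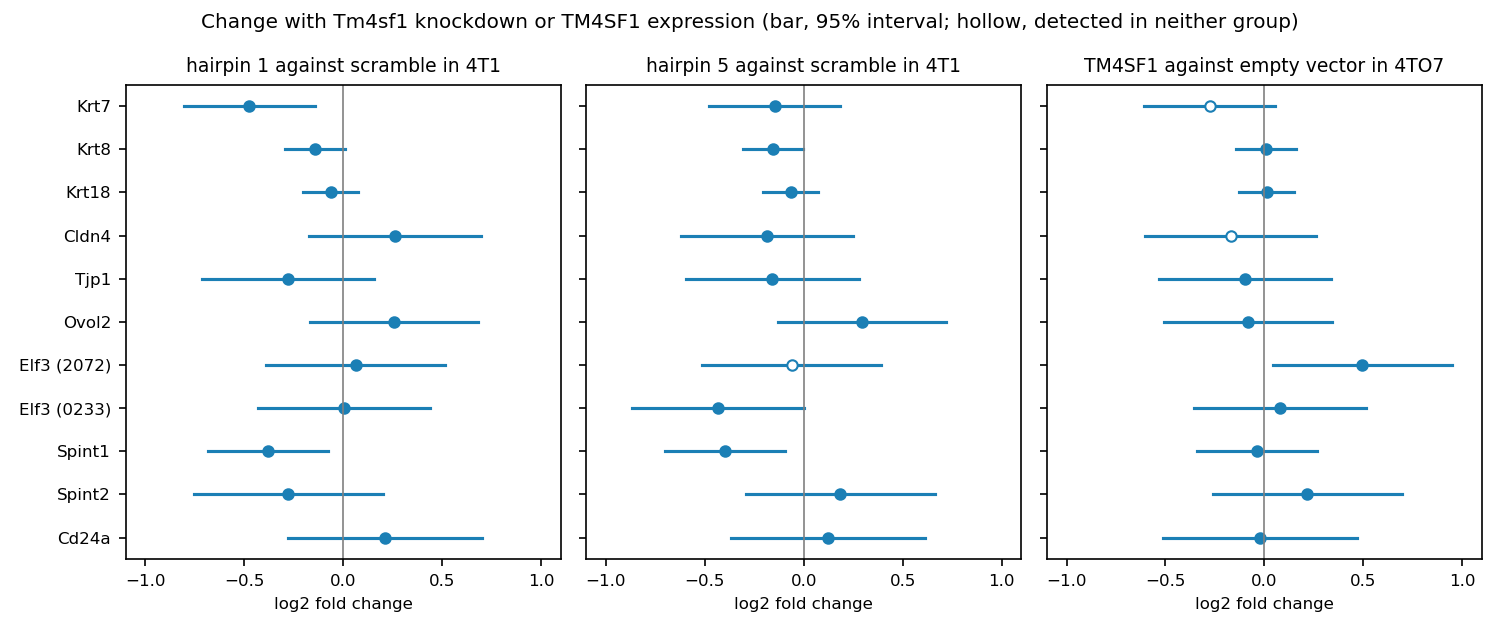
Log2 fold change (horizontal axis, with 95% interval from limma) of the 11 tested member probes (vertical axis) with hairpin 1 or hairpin 5 against scramble in 4T1 and with TM4SF1 against the empty vector in 4TO7. Hollow points were detected on no array of either group compared and carry no level. Intervals of Krt8 and Krt18 are the narrowest, and the interval of Spint1 lies below 0 with both hairpins before adjustment.

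In 4TO7, 0 of 11 member probes passed the test on the arrays labelled TM4SF1 against the empty vector, where 0.018% of all tested probes passed. For 0 of 11 did the arrays separate, where 12.3% of all probes did not overlap. Krt8 differed by 0.01 (95% interval -0.14 to 0.16) and Krt18 by 0.01 (-0.13 to 0.15), each far from the distance to 4T1. Krt7 and Cldn4 were detected on 0 of these 6 arrays, so no change can be given for them. Spint1 differed by -0.04 (-0.34 to 0.27), Tjp1 by -0.10 (-0.53 to 0.34), Ovol2 by -0.08 (-0.51 to 0.34), Spint2 by 0.22 (-0.26 to 0.69) and Cd24a by -0.02 (-0.51 to 0.47). One member probe had an unadjusted p under 0.05, Elf3 at ILMN_2692072, which was detected on 2 of 3 arrays labelled TM4SF1 and on 0 of 3 with the empty vector. It was at least 1.01-fold higher (measured log2 difference 0.50, adjusted p = 0.696, limma), and the brighter Elf3 probe differed by 0.08.

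By group mean, scramble was highest and the 4TO7 groups lowest for Krt18, Krt8, Krt7 and Spint1. The means of Krt8 were 12.29 with scramble, 12.15 and 12.14 with hairpins 1 and 5, 11.53 on the arrays labelled TM4SF1 and 11.52 with the empty vector. For Krt18 the means were 11.82 with scramble, 11.76 with each hairpin, 9.47 on the arrays labelled TM4SF1 and 9.46 with the empty vector. Krt7 ran from 7.85 with scramble through 7.70 with hairpin 5 and 7.37 with hairpin 1 to 4.99 and 4.71 in 4TO7. For Spint1 the means were 7.56 with scramble, 7.17 and 7.16 with hairpins 1 and 5, and 6.30 and 6.26 in 4TO7. For each of them scramble and the empty vector differed past the test's threshold, and no tested pair of groups within a line did.

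Genes whose centred profile over the 15 arrays came closest to a called member were found by the root mean square difference in log2 units, among 7460 named genes with 1 probe each. For Krt18, whose own profile had a root mean square of 1.14, these were Adam19 (difference 0.0870) and Syngr1 (0.132). For Krt7, with a root mean square of 1.39, they were Ydjc (0.177) and St6galnac2 (0.189). For Krt8, with a root mean square of 0.338, they were Commd3 (0.0880) and Wfdc2 (0.0898). For Spint1, with 0.535, they were Camk2n1 (0.141) and Aldh3b1 (0.161). For Cldn4, with only 0.501, they were Dzip3 and Rps6ka5 (both 0.177). For all 5 the line is the main axis of the profile. The genes named were picked for closeness, so sharing that axis follows from the choice.

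Detection of other epithelial genes set the frame for these values. Of 77 other epithelial genes on the array, 42 were detected on 0 of 15 arrays and 28 were tested. Among the undetected were the splicing regulators Esrp1 and Esrp2, the Grainyhead-like factors Grhl1, Grhl2 and Grhl3, the factors Ehf, Elf5 and Ovol1, the keratins Krt5, Krt14 and Krt19, the claudins Cldn3 and Cldn7 and the matriptase gene St14, whose product Spint1 inhibits. Cdh1, the E-cadherin gene, was detected on 1 array, with hairpin 1. Both lines carried Krt8 and Krt18 RNA while several defining epithelial genes were below detection. An undetected probe gives only an upper bound on its signal and does not show that a transcript is absent.

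**Figure D4:**
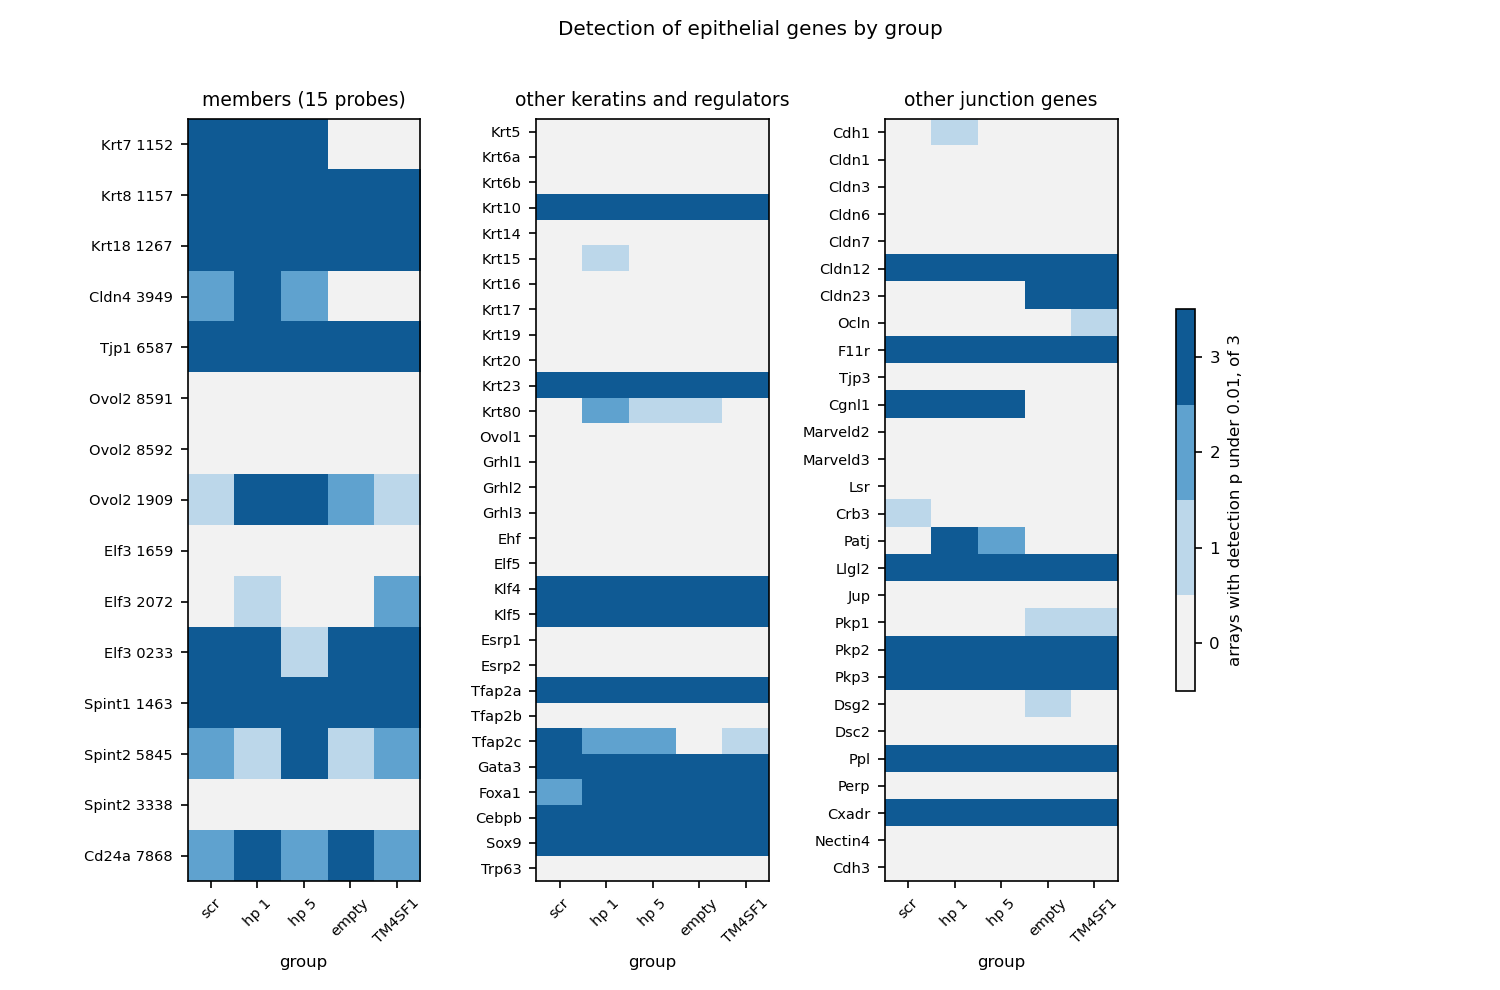
Number of arrays of 3 (colour) with a detection p under 0.01, for the 15 member probes (left, named with the last digits of the probe) and for the brightest probe of other keratin and regulator genes (middle) and junction genes (right), by group (horizontal axis). Krt7, Cldn4 and Cgnl1 are detected in 4T1 groups and on 0 arrays of 4TO7, Cldn23 shows the reverse, and Esrp1, Esrp2, Grhl1, Grhl2 and Grhl3 are detected nowhere.

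Other epithelial genes were read by the brightest tested probe of each, and 21 of 28 were called between the control lines, 12 higher and 9 lower, where 45% of all tested probes were called, 23% higher and 22% lower. Among 3 other keratins tested, 2 fell between the control lines, Krt10 (log2 fold change -1.32) and Krt23 (-0.52), and 0 rose. Of 10 other junction genes, 4 rose and 3 fell. The desmosomal plaque gene Pkp2 rose by 0.93, and the claudin gene Cldn23, not detected in scramble 4T1, was at least 1.14-fold higher. Cgnl1, which encodes a cingulin-like junction protein, was at least 1.54-fold lower, and the polarity gene Llgl2 fell by 0.69. Junction genes thus went in both directions while the called members went down. Cgnl1, like the members Krt7 and Cldn4, passed the detection filter through 4T1 arrays alone, and Cldn23 through 4TO7 arrays alone. For these genes the filter favours the direction seen. Of 8 epithelial regulators, 5 rose and 2 fell. Klf4 rose by 2.16, Sox9 by 1.68 and Foxa1 by 0.94, while Tfap2c, which encodes an AP-2 factor, was at least 3.14-fold lower. In 4TO7 this Tfap2c probe was detected on 1 array only, labelled TM4SF1, so it passed the detection filter because of 4T1 arrays. For Tfap2c too the filter favours a fall in 4TO7. Its second tested probe, detected on 2 scramble arrays and 0 empty-vector arrays, was at least 1.098-fold lower (measured log2 difference -0.904, adjusted p = 0.00193, limma). Of 7 genes for membrane proteases and surface proteins, 3 rose and 2 fell, with log2 fold changes of -0.79 for the tetraspanin Cd9, -0.64 for the syndecan Sdc1, 0.60 for the receptor Met and 0.30 for the galectin Lgals3. In limma's fits, the call of Met was lost when scramble replicate 2 (0.42, adjusted p = 0.185) or 3 (0.53, adjusted p = 0.108) or empty-vector replicate 1 (0.46, adjusted p = 0.163) or 3 (0.65, adjusted p = 0.0504) was left out. Under median scaling in place of quantile normalization Krt23, Llgl2, Sdc1, Met and Lgals3 were not called (adjusted p of 0.38, 0.154, 0.132, 0.0597 and 0.407, limma).

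Of 10 mesenchymal genes tested between the control lines, 6 fell and 3 rose, where 22% of all tested probes were called lower and 23% higher. Among those that fell, Twist1, Pdgfrb and Acta2 passed the detection filter through 4T1 arrays alone. That favours a fall in 4TO7, so the count is a description. The transcription factor gene Twist1, a driver of epithelial-mesenchymal transition, was at least 7.59-fold lower in control 4TO7, with 0 of 3 arrays detected. Pdgfra fell by 1.59, Pdgfrb was at least 1.24-fold lower and Acta2, at its brightest probe, at least 1.88-fold lower. The other tested Acta2 probes differed by -0.04, -0.22 and -0.27 (adjusted p = 0.918, 0.378 and 0.379, limma). Each of those was detected on at most 1 array of the control groups. The remaining genes that fell were Vim, by 0.84, and S100a4, by 0.69. The risers were the receptor kinase gene Axl (log2 fold change 0.46), Zeb2, a repressor of the Zeb family (0.36, adjusted p = 0.014, limma), and the matrix protein gene Sparc (0.30). These last 5 were named after their values were seen, and S100a4, Axl, Zeb2 and Sparc were not called under median scaling (adjusted p of 0.0882, 0.17, 0.281 and 0.391, limma). In limma's fits, the call of Zeb2 was also lost without scramble replicate 3 (0.32, adjusted p = 0.0519) or empty-vector replicate 1 (0.25, adjusted p = 0.12). Zeb1 was detected on 0 arrays, and Snai1, of the Snail family, differed by 0.24 (adjusted p = 0.156, limma). The summed linear level of the 21 genes of this list was 17130 to 18310 on scramble arrays and 15640 to 16810 on empty-vector arrays. Of the basal mammary markers, the 2 tested, Acta2 and Egfr (at least 2.53-fold lower), both fell. Both passed the detection filter through 4T1 arrays alone, which favours a fall in 4TO7, so their direction is a description. The list's summed level was 319 to 330 with scramble against 184 to 197 with the empty vector. Since 0 of the list's 9 genes were detected with the empty vector, that sum is undetected signal and not a level. Besides Acta2 and Egfr, the other 7 on the array, Krt5, Krt14 and Krt17 among them, were undetected throughout. Of 6 luminal markers tested, 3 rose and 2 fell. The risers were Foxa1, Csn3 (0.93) and Cd14 (0.82), and the others were the members Krt18 and Krt8. The summed level of this list was 10460 to 11030 with scramble and 6475 to 6668 with the empty vector, a fall that lies in the members: Krt8 and Krt18 together gave 8354 to 8809 and 3332 to 3857, and the other 10 genes 2107 to 2218 and 2771 to 3143. The part of these genes in the members' difference was not tested.

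**Figure D5:**
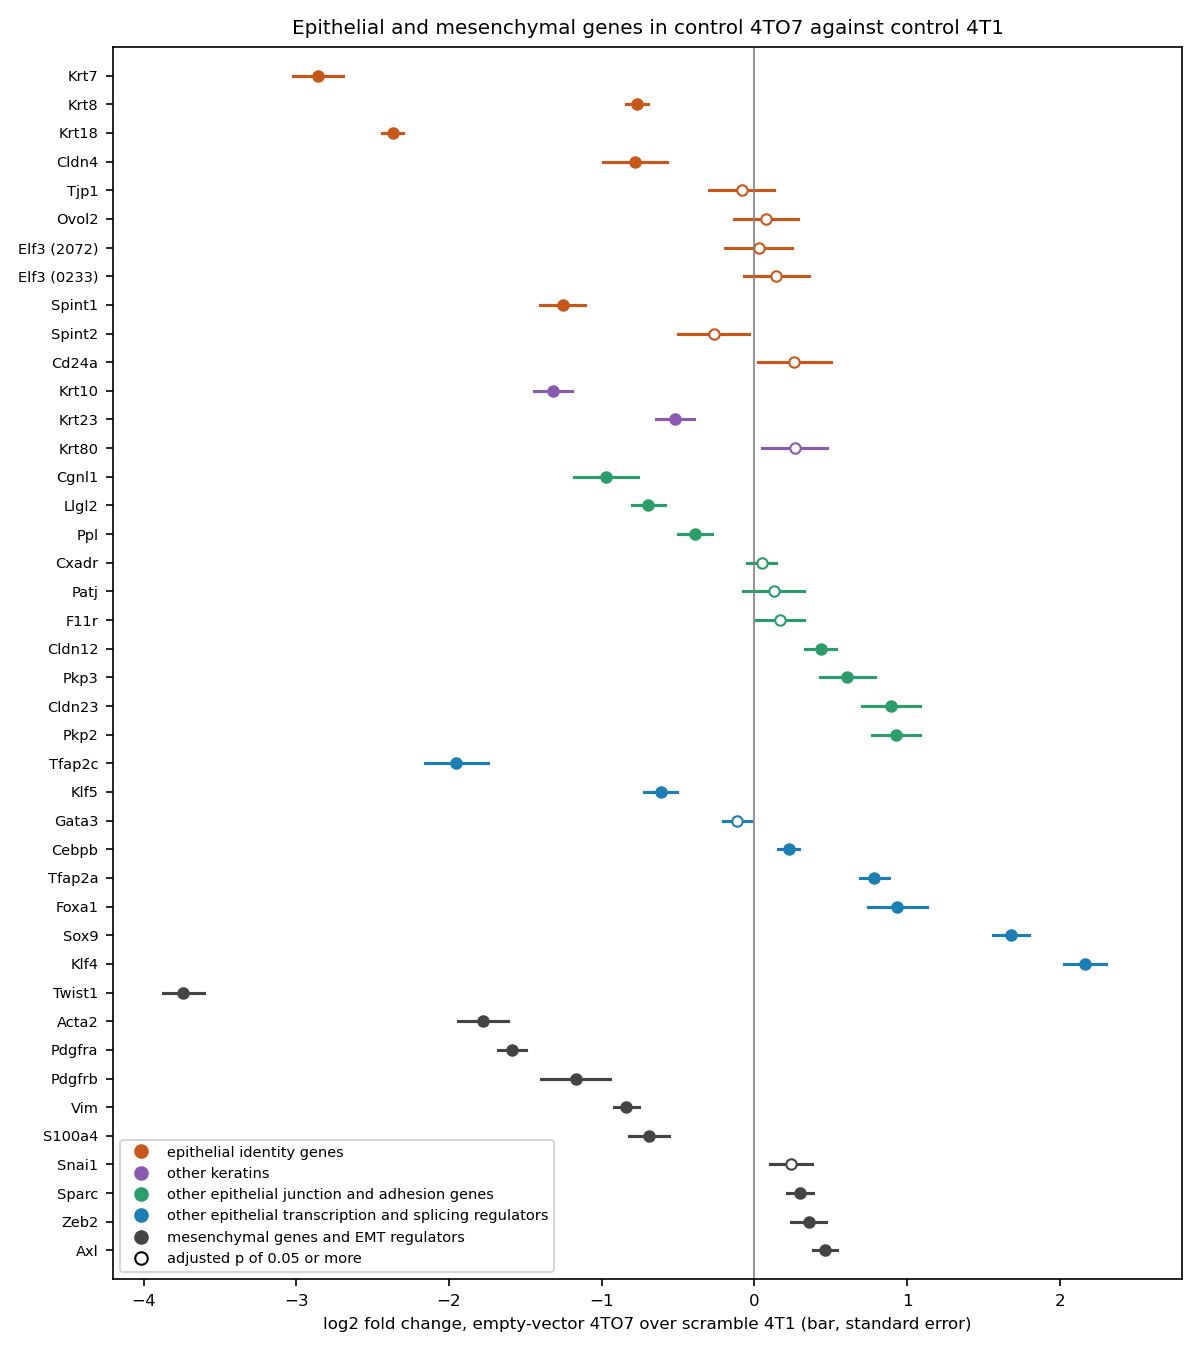
Log2 fold change (horizontal axis, bar showing the standard error) of empty-vector 4TO7 over scramble 4T1 for the 11 tested member probes and for tested genes of 4 other lists (vertical axis), with hollow points for an adjusted p of 0.05 or more. Called members lie between -2.86 and -0.77, junction and regulator genes lie on both sides of 0, and Twist1 is lowest. Values of genes undetected in a group are measured differences and not bounds.

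With the hairpins, 3 of the 28 other epithelial genes were called with hairpin 1, where 4.7% of all tested probes were, and 4 of 28 with hairpin 5, where 2.63% were. At their brightest probes, 0 of the 10 junction genes passed with hairpin 1 and 2 rose with hairpin 5, Pkp2 by 0.83 (adjusted p = 0.00246, limma) and the periplakin gene Ppl by 0.46 (adjusted p = 0.0202). A dimmer Pkp2 probe, ILMN_2665948, detected on all arrays, rose with both hairpins, by 0.62 (adjusted p = 0.00904, limma) and by 0.97 (adjusted p = 0.000101), while the brightest differed by 0.44 with hairpin 1 (adjusted p = 0.125) and the remaining probe by -0.02 and 0.23. In limma's fits, the call of Ppl was lost without scramble replicate 1 (0.42, adjusted p = 0.0987) or 2 (0.45, adjusted p = 0.0689) or hairpin 5 replicate 1 (0.44, adjusted p = 0.0893) or 3 (0.40, adjusted p = 0.0745), and its second probe differed by -0.03. Of the 8 regulators, Tfap2c fell by 1.37 with hairpin 1 (adjusted p = 0.000131, limma) and fell by 1.33 with hairpin 5 (adjusted p = 0.000233), comparisons that share the scramble arrays. With no background correction the log2 fold changes were -0.65 and -0.63, and the second tested probe of Tfap2c gave -0.51 with each hairpin (adjusted p = 0.244 and 0.293, limma). Klf5 rose by 0.49 with hairpin 1 (adjusted p = 0.00596, limma), a call that was lost without the dimmest array of each group (adjusted p = 0.09). Lgals3 rose by 0.54 and by 0.49. Of the 3 other keratins, 0 passed with either hairpin, and of the 6 luminal markers, 0 passed.

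Acta2, the smooth muscle actin gene in the mesenchymal and basal lists, was the only called gene of the 10 and 2 tested there with either hairpin. It rose with both, by 0.57 with hairpin 1 (adjusted p = 0.045, limma) and by 2.98 with hairpin 5 (adjusted p = 1.38e-12). In limma's fits, the hairpin 1 call was lost when any scramble array was left out (adjusted p = 0.0888, 0.152 and 0.105 without replicates 1, 2 and 3) and without hairpin 1 replicate 1 (0.159) or 3 (0.216). It was lost in 12 of 21 alternative fits in all, among them limma's fits on the authors' normalized values (adjusted p = 0.0769) and cyclic loess (0.0804), and with no background correction the log2 fold change was 0.29. Its other tested probes gave 0.51, 0.43 and -0.11 with hairpin 1 and 1.32, 1.71 and 0.55 with hairpin 5. The summed level of the basal list was 319 to 330 with scramble, 374 to 418 with hairpin 1 and 817 to 881 with hairpin 5. Only Acta2 and Egfr of that list were detected on these arrays. In that order, mean log2 levels were 6.19, 6.75 and 9.16 for Acta2 and 6.62, 7.06 and 6.85 for Egfr. The part of the basal list in the members' values was not tested. On the arrays labelled TM4SF1, 0 genes of the other lists passed against the empty vector.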

How the data were processed

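For 25697 probes on each of 15 arrays, the deposited matrix held bead-averaged intensity that was unnormalized and not background-subtracted per the file headers, together with a standard error. It also gave the bead count and, per the file headers, a detection p-value per probe. The submitters' processing notes name GenomeStudio. A second deposited table held linear intensity that appears background-subtracted and quantile normalized: array medians were 8.34 to 8.45, the lowest value was -18.46 and ranks matched those of the first table (r = 1). Its direction and scale follow from that match, and it served as an alternative.

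Background was corrected in limma 3.58.1 (R 4.3.3) by the normexp method, its noise estimated through the detection p-values, with 16 added as an offset. Quantile normalization and a log2 transform followed. A group-means model on all 15 arrays, with a mean-variance trend (10 residual and 16.3 prior degrees of freedom), was fitted to the 11109 probes detected on at least 3 arrays. P-values from limma are two-sided and Benjamini-Hochberg adjusted over all these probes, and an adjusted p of 0.05 was the threshold. In each comparison the SE of the tested member probes ran from 0.068 for Krt18 to 0.239 for Cd24a. It was 0.211 for Cldn4, and the number of arrays limits precision. The script was tested on simulated data. Symbols came from the 2016 platform annotation, in which 23978 probes had 1 symbol, 0 several and 1719 none, and 23962 matched RefSeq (GRCm38.p6). All 15 probes of the 10 members are named. Of each other list, up to 4 called genes with the largest change at the brightest probe are named, and the 2 nearest profiles of each called member. The members and all lists were chosen with earlier results of these data known. Columns were matched by name, and 0 were left over. Alternatives covered background correction, offset, normalization, detection filter, probe choice, variance trend, array weights, replicate block, compared groups alone and each array left out. Array brightness as a covariate and omission of each group's dimmest array were added after seeing the data. The ratio of Krt18 to Krt8 was not among the planned tests either.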

Additional observations from a re-analysis of the deposited data

Results flagged for a closer look

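No member differed between the hairpins in the direct test. Among the other genes named, 4 differed between hairpin 1 and hairpin 5 by limma's direct contrast (first minus second, log2). Acta2, the smooth muscle actin gene, was lower with hairpin 1 than with hairpin 5 (-2.41 with an SE of 0.165, limma's adjusted p = 4.35e-10), and its other tested probes gave -0.81, -1.28 and -0.66. The periplakin gene Ppl differed by -0.53 (adjusted p = 0.0105, limma), while its second probe gave 0.20. The call of Ppl was lost without hairpin 1 replicate 2 (-0.42, adjusted p = 0.103) or hairpin 5 replicate 1 (-0.51, adjusted p = 0.0561). In the luminal list, where 1 gene was higher and 1 lower of 6, Cd14, a lipopolysaccharide co-receptor gene, differed by 0.38 (adjusted p = 0.0244, limma). The casein gene Csn3 differed by -0.44 (adjusted p = 0.0333, limma). In limma's fits the call of Cd14 was lost without hairpin 1 replicate 1 (adjusted p = 0.0586), 2 (0.0731) or 3 (0.122) or hairpin 5 replicate 2 (0.115) or 3 (0.0553). That of Csn3 was lost without hairpin 1 replicate 1 (adjusted p = 0.166), 2 (0.0616) or 3 (0.0862) or hairpin 5 replicate 1 (0.213) or 2 (0.103).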

How the results depend on the processing

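Under 15 alternatives and 6 omissions of 1 array for each comparison, 0 member probes were called with hairpin 5, between the hairpins or with TM4SF1 in 4TO7. With hairpin 1 the count rose from 0 to 1, the Krt7 probe, with no background correction, with an offset of 50 and with only the compared groups fitted, and the cause was not tested. Leaving out 1 array at a time gave 0 to 0 calls in these 4 comparisons and 5 to 5 between the control lines. Between the lines the count was 5 in all settings but 1: it was 6 with each group's dimmest array omitted, a setting that was chosen after seeing the data, with Spint2 at -0.60 (adjusted p = 0.0235, limma). Of 1145 refitted member values, 1141 kept their side of the threshold, 4 became calls, 0 lost one and 0 calls reversed, while 75 values of members that were not called changed sign. With the replicate number as a replicate block the counts were 0, 0, 0, 0 and 5. The labels do not say whether the numbers pair the arrays. In deviations from group means, 0 of 30 same-numbered pairs of arrays correlated above 0.1, and 1 of 15 arrays correlated best with its own number. These values gave no sign of pairing but cannot exclude it. Median scaling moved the median of all probes by -0.12 with hairpin 1 and by -0.17 with TM4SF1. It left 18 of 522 calls over all probes with hairpin 1, 18 of 292 with hairpin 5, 3 of 161 between the hairpins, 0 of 2 in 4TO7 and 1919 of 4998 between the lines, so that Pkp2, Ppl, Klf5 and Lgals3 were no longer called with a hairpin, nor Acta2 with hairpin 1, nor Ppl, Cd14 and Csn3 between the hairpins. Between the lines 15 called genes of the other lists were no longer called under it, with an adjusted p from 0.0597 to 0.613 (limma): Cldn12, Ppl, Llgl2, Pkp3, Krt23, Cebpb, Klf5, Slpi, Lgals3, Sdc1, Met, Axl, Sparc, S100a4 and Zeb2. With no background correction 32 of 33 such genes stayed called, Met being the exception (0.21, adjusted p = 0.0525), and 13 had a log2 difference smaller by over 1.5 times. Without the detection filter 336 and 190 probes were called with hairpins 1 and 5. Cldn4, Elf3, Ovol2, Spint2 and Cd24a lay near background, where signal limits what can be told.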
